A study of Homo sapiens with 65 samples.

Results

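Glypicans and syndecans are the 2 families of heparan sulfate proteoglycans that sit on the cell surface, and 9 genes of these families were examined here across the differentiation of human left ventricular cardioids. The members were the glypicans GPC1, GPC2, GPC3, GPC4 and GPC6 and the syndecans SDC1, SDC2, SDC3 and SDC4, which are 9 of the 58735 genes in the deposited count table. They were taken by name. GPC3 was selected on its measured counts, which separated cardioids given hyaluronidase early from cardioids given it late, at days 4.5 and 7.5. That contrast is therefore given for the members as a description with no test. GPC5, the remaining glypican, was left out of the set and reached at most 5.59 CPM (counts per 1000000 counts of the library) in any library.

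Glypicans are held in the outer leaflet of the plasma membrane by a glycosylphosphatidylinositol anchor, whereas syndecans span the membrane and end in a short cytoplasmic tail that binds PDZ proteins and the cytoskeleton. Both carry heparan sulfate, a sulfated sugar chain that binds fibroblast growth factors, bone morphogenetic proteins, Wnt proteins and hedgehog proteins and so acts as a co-receptor or a reservoir for them. Hyaluronan, which the knockout and the enzyme of this study are aimed at, is also a glycosaminoglycan, but it has no core protein and no sulfate. GPC3 binds hedgehog proteins, and its loss in people causes Simpson-Golabi-Behmel syndrome, an overgrowth disorder in which heart defects occur.

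Cardioids are self-organising heart-like spheroids grown from pluripotent stem cells, here from the human induced pluripotent line WTC-11 and lines derived from it. The 65 libraries fell into 16 groups, and each pooled 8 cardioids. In the genotype arm of 41 libraries, cardioids labelled HAS2 knockout (KO, clones cl4, cl14, cl46 and cl51) were set beside ones labelled wild type (WT). They were collected at day 1.5 (6 KO, 5 WT), days 2.5 and 4.5 (6 and 6 each) and day 7.5 (3 and 3). Clone cl4 gave 3 of the 6 KO libraries at days 1.5, 2.5 and 4.5, and the other clones 1 each. KO at day 7.5 came only from cl4 (replicates R2 and R3) and cl14. HAS2 encodes a hyaluronan synthase, the enzyme that makes hyaluronan. In the enzyme arm of 24 libraries, cardioids with no knockout label received hyaluronidase from day 1.5 or day 2.5, or were left untreated. Hyaluronidase digests hyaluronan. The labels give the treatment as running to the day of collection, so early start cardioids were also treated for longer than late start ones. Untreated and day 1.5 start cardioids were collected at days 2.5, 4.5 and 7.5, day 2.5 start cardioids at days 4.5 and 7.5, with 3 libraries per group from the lines TNNI1, WT and TNNT2. None of the enzyme-arm libraries is also a genotype-arm library, but the arms share line names. The line WT is in both, and library names write the enzyme-arm line TNNT2 as TNT2, a WT line name of the genotype arm. In that genotype arm, several libraries of a group repeat 1 line or clone, although the labels speak of at least 3 biological replicates per condition, so the p-values measure the spread between these libraries.

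Libraries held 831062 to 3574843 counts, with a median of 1570954, made with a 3′ tag method that reads 1 end of each transcript. One CPM was therefore about 1 to 4 counts, and members below a few CPM rest on few reads. HAS2 itself did not separate the libraries labelled KO from WT: its group means were 197 CPM in WT and 165 in KO at day 1.5, and 271 and 315 at day 7.5. A 3′ tag outside the edited part of a gene does not check the edit. The labels give the cell type as cardiac progenitor. Summed over 6 cardiomyocyte genes, the level went from 10.6 to 63.6 CPM in WT at day 1.5, with MYH6, MYH7 and ACTN2 at 3 counts or fewer in every library, to 20928 to 53988 CPM in WT at day 4.5. In such bulk libraries, fewer cells of a type and less RNA per cell cannot be told apart.

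**Figure D1:**
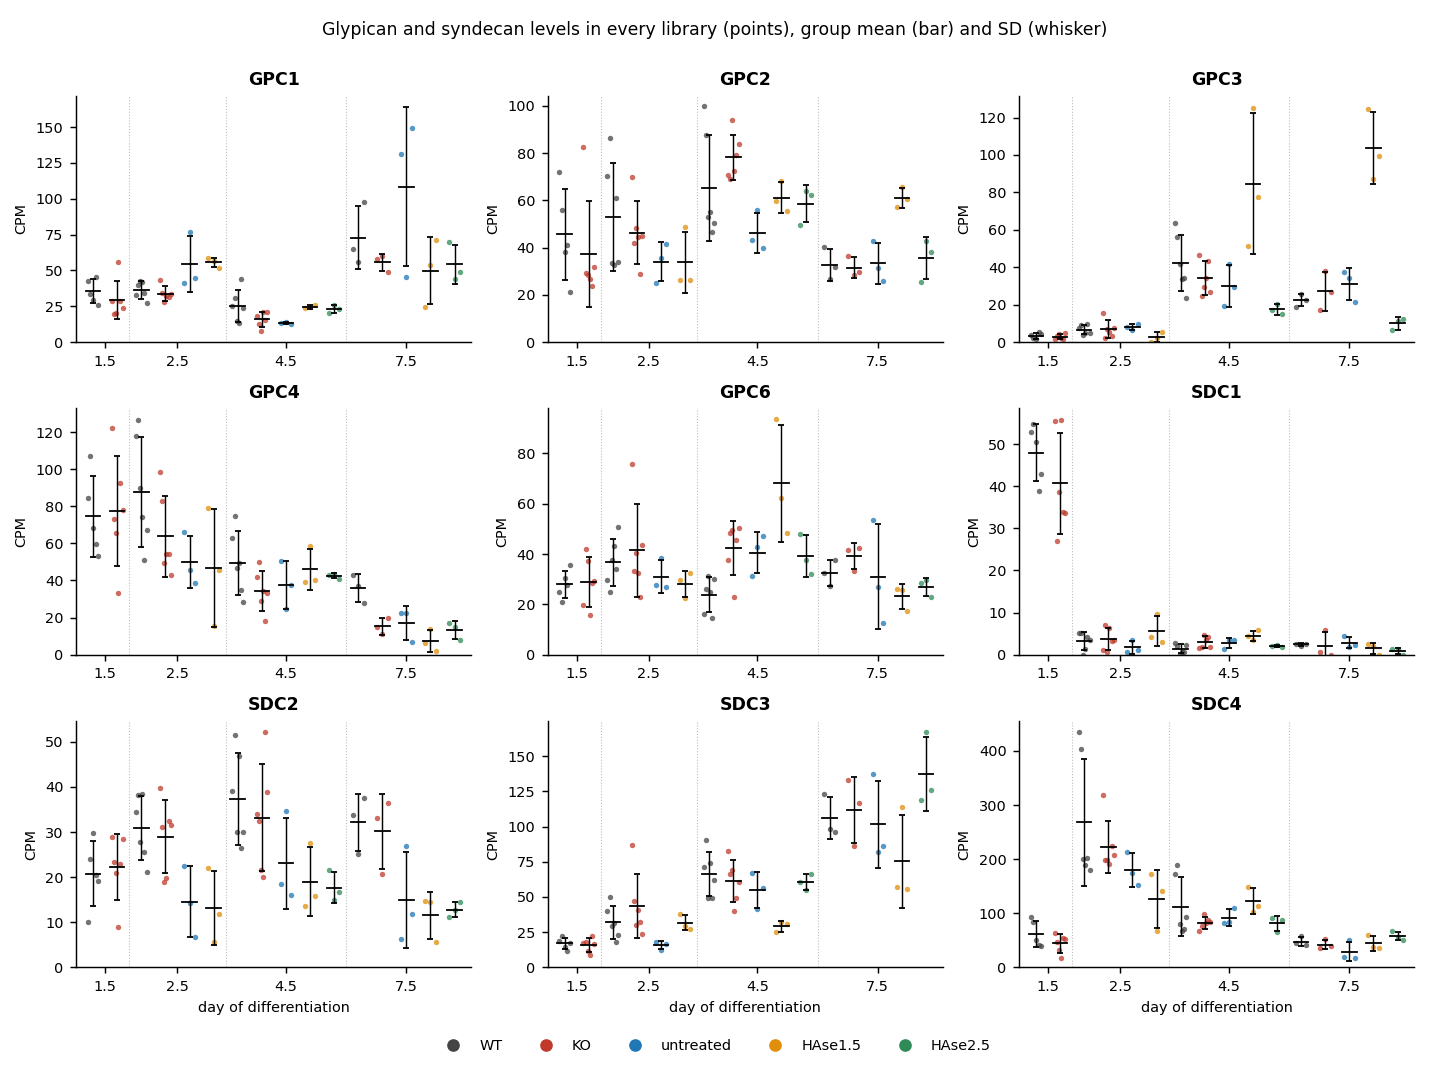
Level of each of the 9 members in CPM (vertical axes, 1 panel per gene) in the 16 groups, with 1 point per library, a bar at the group mean and a whisker of 1 SD. SDC4 peaks at day 2.5 with WT libraries at 179 to 434 CPM, SDC1 is high at day 1.5 and at 0 to 9.59 CPM afterwards, and GPC3 is highest in the cardioids given hyaluronidase from day 1.5.

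Between days 1.5 and 2.5 SDC1 fell while SDC4 rose, and SDC3 rose in the step that followed. The promoters of these 3 syndecans are therefore shown before their values. RefSeq promoter entries (GRCh38.p14) were found for 7 of the 9 members. GPC3 and SDC2 had none. Each line gives the 250 bases upstream of the annotated start, 5′ to 3′ on the gene's strand, with capitals marking the GC box GGGCGG or its reverse complement, a motif bound by Sp1-type factors. SDC1 lies at chr2:20225476-20225725 on the minus strand, SDC4 at chr20:45348425-45348674 on the minus strand, and SDC3 at chr1:30908759-30909008 on the minus strand.
SDC1: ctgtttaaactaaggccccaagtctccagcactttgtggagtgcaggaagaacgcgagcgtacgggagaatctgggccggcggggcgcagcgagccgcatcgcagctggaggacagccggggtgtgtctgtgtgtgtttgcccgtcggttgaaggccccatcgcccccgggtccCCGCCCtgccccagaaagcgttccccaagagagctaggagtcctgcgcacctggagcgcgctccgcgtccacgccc
SDC4: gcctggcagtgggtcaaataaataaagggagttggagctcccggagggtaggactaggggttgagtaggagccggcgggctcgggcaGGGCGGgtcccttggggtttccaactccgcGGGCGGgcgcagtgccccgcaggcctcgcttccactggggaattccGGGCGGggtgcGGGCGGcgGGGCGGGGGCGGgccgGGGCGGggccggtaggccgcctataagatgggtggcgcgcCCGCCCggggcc
SDC3: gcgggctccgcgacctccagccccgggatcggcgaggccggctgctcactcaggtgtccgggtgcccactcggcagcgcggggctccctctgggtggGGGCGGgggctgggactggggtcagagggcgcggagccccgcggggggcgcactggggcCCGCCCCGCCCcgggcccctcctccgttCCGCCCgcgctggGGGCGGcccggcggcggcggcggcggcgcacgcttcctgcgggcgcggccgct

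GC boxes, counted on both strands with overlaps, stood 8 times in the SDC4 window, 5 times in SDC3 and 1 time in SDC1. At least 1 was present in 42.6% of the 35116 promoters of the table. Among the glypicans, GPC1 had 4, GPC2 had 3, GPC4 had 2 and GPC6 had 0. The GPC6 window stood apart from the rest, with 37.6% G and C against 66.4% to 84% in the other 6 and a median of 58% over all promoters. It was also the only one of the 7 with a TATA box, TATAAA, which 10.7% of all promoters held. E-boxes, CANNTG, stood 2 times in SDC1 and 1 time each in SDC3 and GPC2 (61.8% of all promoters). The TEAD motif GGAATG (11.9% of all promoters) and the GATA motif GATAAG (5.65%) were in none of the 7 windows. Such matches describe the letters only.

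SDC1, known as CD138 and carried by epithelial and plasma cells, was on at day 1.5 and nearly off from day 2.5. WT libraries held 52.9, 54.8, 50.6, 39.0 and 42.9 CPM at day 1.5. At day 2.5 the lowest, median and highest were 0, 3.76 and 5.24 CPM. The ranges lay far apart, and in each of the 5 pairs of libraries with the same line and replicate name, from 4 lines, the later one was lower. In log2 terms SDC1 fell by 3.97, with an SE of 0.46 (edgeR quasi-likelihood test, p adjusted by Benjamini-Hochberg = 7.49e-09). The library at 0 has a floor of 2.14 CPM for 3 counts. SDC1 reached no more than 9.59 CPM in any later library and was too low to be tested in the enzyme arm. In KO cardioids it was lower at day 2.5 than at day 1.5 in 6 of 6 libraries, from clones cl4, cl14, cl46 and cl51.

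SDC4, which sits in focal adhesions and binds protein kinase C alpha, was highest at day 2.5 among the days sampled. WT libraries held 92.0, 83.7, 50.1, 41.5 and 39.8 CPM at day 1.5, and 179, 201 and 434 CPM as lowest, median and highest at day 2.5. At day 4.5 the same 3 figures were 66.4, 85.9 and 190 CPM, and at day 7.5 the 3 libraries held 44.6, 57.2 and 40.7 CPM. All 5 such pairs went up between the first 2 days, by 3.98 to 4.89 times, and all 6 pairs, also from 4 lines, came down again. SDC4 rose by 1.89 ± 0.31 (log2 fold change ± SE, edgeR adjusted p = 8.08e-06) and then fell by 1.20 ± 0.29 (edgeR adjusted p = 0.000887). The WT libraries of the first library-number block, WT and WT_TU replicate 1, stood highest on all 3 early days, and at day 2.5 at 434 and 403 CPM against 179 to 203 in the other 4. In the genotype arm the last step, from day 4.5 to day 7.5, did not pass, at -1.23 ± 0.38 (edgeR adjusted p = 0.0659). Without the WT line cl43_WT_UT or without WT_TU replicate 2 at day 4.5 it did, at adjusted p = 0.0486 and 0.0417.

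SDC3, the syndecan of neurons and muscle progenitors, went the other way and climbed through the course. WT libraries held 18.7, 22, 14.6, 11.8 and 17.6 CPM at day 1.5. The lowest, median and highest were 17.8, 30.3 and 49.7 CPM at day 2.5 and 49.4, 66.7 and 90.3 CPM at day 4.5, and day 7.5 gave 123, 98.4 and 96.3 CPM. Day 7.5 lay above every earlier WT library. The step from day 2.5 to day 4.5 passed, at 1.09 ± 0.25 (edgeR adjusted p = 0.000642), with 6 of 6 pairs higher. The steps before and after gave 0.69 ± 0.27 (edgeR adjusted p = 0.0533, DESeq2 0.0451) and 0.70 (adjusted p = 0.246). SDC2, common on fibroblasts, had 5.58 to 52.2 CPM across all groups and passed no test in either arm.

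GPC3 was close to the detection limit at first and came up between days 2.5 and 4.5. WT libraries held 3.64, 2.11, 1.57, 5.64 and 4.13 CPM at day 1.5, and 3.57, 6.31 and 9.69 CPM as lowest, median and highest at day 2.5. At day 4.5 the lowest, median and highest were 23.7, 38.0 and 63.4 CPM, and at day 7.5 the libraries held 19.0, 25.8 and 22.6 CPM. The day 4.5 libraries all lay above all of day 2.5, and the 6 pairs went up by 3.54 to 11.7 times. GPC3 rose by 2.68 ± 0.33 (log2, edgeR adjusted p = 1.74e-08). The steps on either side did not pass, at 0.80 ± 0.39 (edgeR adjusted p = 0.117) and -0.91 ± 0.38 (adjusted p = 0.251). In KO cardioids GPC3 was higher at day 4.5 than at day 2.5 in 6 of 6 libraries, by 2.99 to 13.5 times. These came from clones cl4, cl14, cl46 and cl51.

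GPC1, the most widely expressed glypican, was highest at day 7.5 in WT, and its day 4.5 range overlapped those of both earlier days. WT libraries spanned 25.8 to 45.1 CPM at day 1.5 and 27.0 to 42.8 CPM at day 2.5. Day 4.5 gave 13.1, 24.3 and 44.2 CPM as lowest, median and highest, and the day 7.5 libraries held 64.7, 55.8 and 97.6 CPM, above all the others. The last step was the only 1 that passed, at 1.55 ± 0.29 (log2, edgeR adjusted p = 0.000892), with 3 of 3 pairs, from the lines WT and WT_TU, higher by 2.59 to 7.43 times.

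GPC4 fell in the middle step, and GPC2 and GPC6 passed in none. GPC4, which binds Wnt and fibroblast growth factors and neighbours GPC3, held 51.0 to 126 CPM in WT at day 2.5 and 28.3 to 74.5 CPM at day 4.5. It was lower in 6 of 6 pairs, to 0.420 to 0.685 of the earlier level, with overlapping ranges. The fall was 0.77 ± 0.28 on the log2 scale (edgeR adjusted p = 0.0285). Without WT or WT_TU replicate 1 at day 2.5, or without cl43_WT_UT or TNT2 at day 4.5, the adjusted p lay between 0.0706 and 0.0886. GPC6, a regulator of bone growth and Wnt signalling, was lower in 5 of 6 pairs over the same step, at -0.57 ± 0.24 (edgeR adjusted p = 0.0557). GPC2, a glypican of developing neurons, held 46.8, 53.9 and 100.0 CPM in WT at day 4.5 (lowest, median and highest) and 40.0, 26.5 and 31.7 CPM at day 7.5. It was lower in 3 of 3 pairs without overlap, at -0.99 ± 0.38 (edgeR adjusted p = 0.191). GPC2 was also lower in 3 of 3 KO pairs, from clones cl4 and cl14.

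In all, 2 of the 9 members passed from day 1.5 to day 2.5 in WT (SDC4 up and SDC1 down), where 30.1% of all genes tested did. From day 2.5 to day 4.5 there were 4 of 9 (GPC3 and SDC3 up, GPC4 and SDC4 down) against 34.5%, and from day 4.5 to day 7.5 there was 1 of 9 (GPC1 up) against 2.7%. With 9 members, no more than these counts is read from the comparison with all genes. Over the 3 steps 4, 6 and 1 of the 6 cardiomyocyte genes rose and 0 fell, and 5 of 5 early mesoderm genes, TBXT and MIXL1 among them, fell from day 1.5 to day 2.5. Their part in the members' course was not tested.

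The last 2 steps were also measured in separate libraries, the untreated cardioids of the enzyme arm, where the members called were partly others. From day 2.5 to day 4.5, 4 of the 8 members tested passed against 23% of all genes, and from day 4.5 to day 7.5, 3 of 8 against 6.39%. GPC3 went from 8.17, 6.26 and 9.53 CPM (lines TNNI1, WT and TNNT2 in this order, as below) to 19.1, 41.7 and 29.2 CPM, a rise of 1.73 ± 0.44 (log2, edgeR adjusted p = 0.00617). SDC3 went from 17.9, 12.5 and 16.8 CPM to 66.9, 41.7 and 56.3 CPM, a rise of 1.66 ± 0.29 (edgeR adjusted p = 0.000204). Both genes were higher in all 3 lines with no overlap. SDC4 fell by 1.09 ± 0.31 (edgeR adjusted p = 0.012), though without untreated replicate 1 at day 2.5, or replicate 1 or 2 at day 4.5, the adjusted p was 0.0513 to 0.0523. GPC1 went from 41.4, 76.9 and 44.9 CPM to 13.6, 14.2 and 12.5 CPM. That fall was 2.12 ± 0.40 (edgeR adjusted p = 0.000483), while in WT the same step gave -0.49 (adjusted p = 0.131). GPC4, called in WT, did not pass here, at -0.53 ± 0.46 (edgeR adjusted p = 0.444). The difference between the arms was not tested.

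By day 7.5 untreated GPC1 stood at 131, 45.3 and 149 CPM, a rise of 3.13 ± 0.40 from day 4.5 (log2, edgeR adjusted p = 5.24e-05). SDC3 reached 137, 81.7 and 86.1 CPM, a rise of 0.99 ± 0.26 (edgeR adjusted p = 0.0257). Without replicate 2 or 3 at day 4.5, or replicate 1 at day 7.5, its adjusted p was 0.0869 to 0.168. SDC4 fell from 82.6, 83.5 and 110 CPM to 19.6, 49.8 and 17.1 CPM, by 1.53 ± 0.33 (edgeR adjusted p = 0.0079). Without replicate 1 or 3 at day 7.5 the adjusted p for SDC4 was 0.0556 or 0.058. The line WT library, replicate 2, stood apart from the other 2 at day 7.5 in both GPC1, where it was low, and SDC4, where it was high. GPC3 differed by 0.18 ± 0.40 over this step (edgeR adjusted p = 0.814). SDC3 and SDC4 did not pass over this step in WT, as given above.

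**Figure D2:**
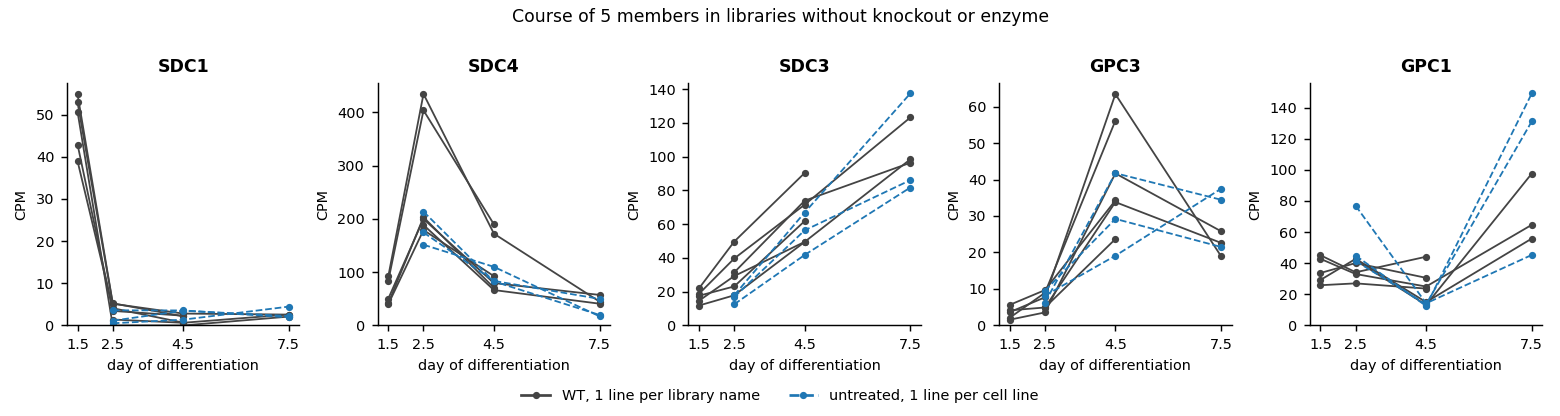
CPM of SDC1, SDC4, SDC3, GPC3 and GPC1 (1 panel each) against day of differentiation in WT and untreated libraries, with libraries of 1 line and replicate joined. SDC1 drops after day 1.5, and SDC4 is highest at day 2.5 in every joined line that also holds day 1.5. GPC1 is lowest at day 4.5 in the untreated lines, at 12.5 to 14.2 CPM.

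As shares of the counts of their own family, the members changed places over these courses. A count in 3′ tag data stands for a transcript whatever its length, so the shares are of counts. SDC4 made up 40.6% of syndecan counts in WT at day 1.5, 79.4% at day 2.5, 50.0% at day 4.5 and 25.4% at day 7.5. SDC3 took 11.6%, 9.75%, 31.6% and 56.2% on the same days, and SDC1 went from 33.1% to 0.957% over the first step. Among glypicans, GPC4 went from 39.6% at day 1.5 to 18.6% at day 7.5, while GPC3 held 1.92%, 3.01%, 20.1% and 11.6% on the 4 days. GPC2 held the largest share at day 4.5, 31.3%, and GPC1 at day 7.5, 36.6%.

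**Figure D3:**
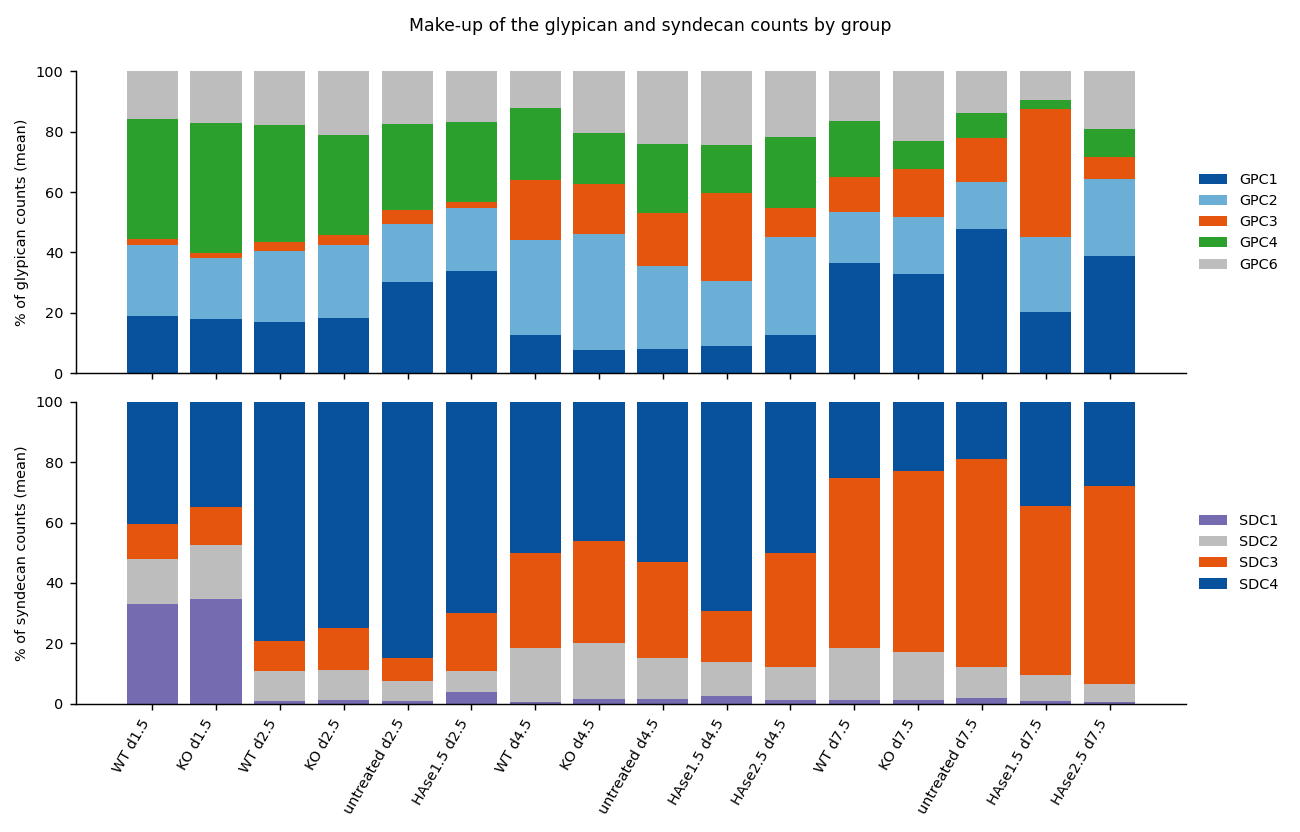
Mean share of each member in the counts of its family, in percent, as stacked bars by group, glypicans and syndecans in separate panels. SDC4 fills 79.4% of the syndecan bar in WT at day 2.5 and SDC3 56.2% at day 7.5, and GPC3 fills 42.4% of the glypican bar at day 7.5 in cardioids given hyaluronidase from day 1.5.

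GPC3 and GPC4 are neighbours on chromosome X. In GENCODE 29 (GRCh38) GPC3 runs from 133535745 to 133985895 and GPC4 from 133300103 to 133415490, both on the minus strand, with 120254 bases and 0 protein-coding genes between them. These neighbours went apart over 1 step: from day 2.5 to day 4.5 in WT, GPC3 rose and GPC4 fell, by the values above. From day 1.5 to day 2.5 GPC3 was higher in 5 of 5 WT pairs and GPC4 in 4 of 5. From day 4.5 to day 7.5 both were lower in 3 of 3. GPC1 lies on chromosome 2 (240435671 to 240468078, plus strand), GPC2 on chromosome 7 (100169606 to 100177372, minus strand) and GPC6 on chromosome 13 (93226842 to 94407401, plus strand). GPC6 overlaps the antisense gene AL354811.1 by 476 exonic bases. That gene had at most 29 counts in any library, and the strand setting of the counting is not given in the sources used here, so a small part of GPC6 counts could belong to either gene. The syndecan genes SDC1 (chromosome 2, 20200797 to 20225433), SDC3 (chromosome 1, 30869467 to 30908761) and SDC4 (chromosome 20, 45325288 to 45348424) are all on the minus strand.

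Hyaluronidase from day 1.5 went with much more GPC3 at days 4.5 and 7.5 and hyaluronidase from day 2.5 with less. At day 4.5 the untreated libraries held 19.1, 41.7 and 29.2 CPM, those with the day 1.5 start 51.5, 125 and 77.4 CPM, and those with the day 2.5 start 17.3, 20.3 and 14.7 CPM. At day 7.5 the same groups held 37.5, 34.5 and 21.5 CPM, 125, 87.0 and 99.7 CPM, and 6.23, 11.4 and 12.4 CPM. In every line and on both days the day 1.5 start was highest and the day 2.5 start lowest. The early start exceeded the late one by 2.99, 6.17 and 5.25 times at day 4.5 and by 20.0, 7.63 and 8.01 times at day 7.5. These are log2 differences of 2.23 ± 0.40 and 3.31 ± 0.43 (SE), the values for which GPC3 was chosen.

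Set against untreated cardioids, which the choice of GPC3 also touches through the treated libraries, GPC3 was higher with the day 1.5 start by 1.43 ± 0.38 at day 4.5 and 1.63 ± 0.38 at day 7.5 (log2 ± SE, no test). With the day 2.5 start it was lower by 0.80 ± 0.41 and 1.68 ± 0.43. Fitted values for the early start ran from 1.03 to 1.72 at day 4.5 and from 1.44 to 1.77 at day 7.5 over other settings. These settings, the removal of each library among them, use the libraries by which GPC3 was chosen. The ranges are therefore description only. At day 2.5, 1 day after the early start and outside the choice of GPC3, the direction was the opposite. Treated libraries held 0, 2.40 and 5.62 CPM against 8.17, 6.26 and 9.53 CPM untreated, lower in 3 of 3 lines. The library at 0 has a floor of 2.06 CPM for 3 counts. That difference did not pass, at -1.57 ± 0.59 (edgeR adjusted p = 0.303).

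**Figure D4:**
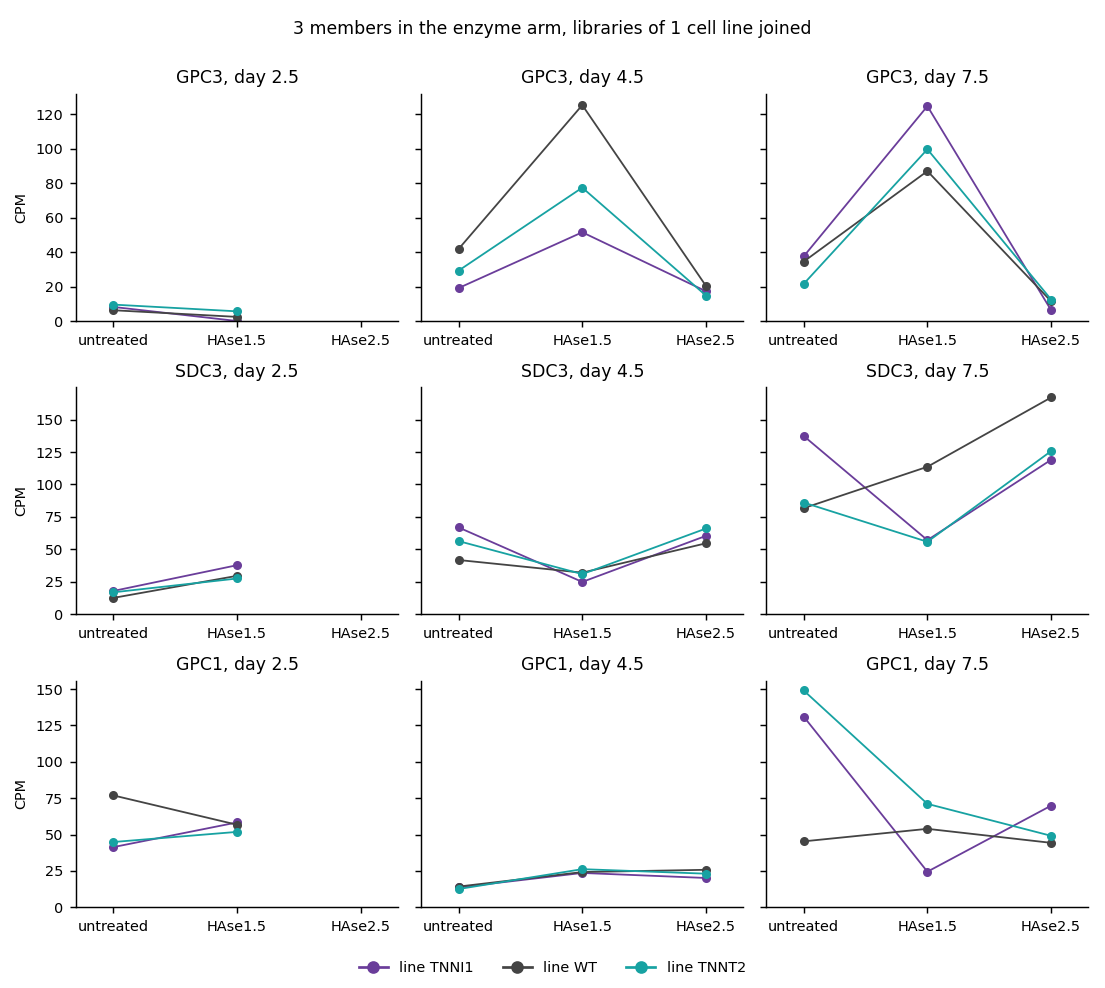
CPM of GPC3, SDC3 and GPC1 (rows) at days 2.5, 4.5 and 7.5 (columns) in untreated cardioids and those given hyaluronidase from day 1.5 or day 2.5, with points of 1 line joined. GPC3 goes up and then down across the 3 groups in all 3 lines at days 4.5 and 7.5, and SDC3 is higher with the early start at day 2.5 and lower at day 4.5.

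Ranked by mean over all 16 groups, GPC3 was highest in the day 1.5 start cardioids at day 7.5 (104 ± 19.2 CPM, SD, n = 3) and at day 4.5 (84.7 ± 37.4, n = 3). WT at day 4.5 (42.2 ± 15.0, n = 6) and KO at day 4.5 (34.1 ± 9.05, n = 6) came next. Untreated cardioids at days 7.5 and 4.5 (31.2 ± 8.48 and 30 ± 11.3), KO at day 7.5 (27.2 ± 10.5) and WT at day 7.5 (22.5 ± 3.42) followed, each with n = 3. The day 2.5 start gave 17.4 ± 2.78 at day 4.5 and 10.0 ± 3.33 at day 7.5. All day 2.5 and day 1.5 groups lay between 2.67 and 7.99 CPM. Of the 15 pairs of neighbours in this order, the library ranges overlapped in 14. The exception was the step between the late start groups of days 4.5 and 7.5.

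SDC3 was higher than untreated at day 2.5 and lower at day 4.5 under early hyaluronidase, the reverse of the order of GPC3. At day 2.5 it went from 17.9, 12.5 and 16.8 CPM untreated to 37.7, 29.6 and 27.5 CPM, with no overlap between the groups. At day 4.5 it went from 66.9, 41.7 and 56.3 CPM to 24.8, 32.0 and 30.8 CPM, again with no overlap. At day 7.5 untreated libraries held 137, 81.7 and 86.1 CPM and treated ones 57.1, 114 and 55.8 CPM, overlapping. The day 4.5 difference passed, a fall of 1.0 ± 0.28 (log2, edgeR adjusted p = 0.0443). With each of the 6 libraries left out in turn it was lost in 5 cases, at adjusted p of 0.0594 to 0.252. The differences at day 2.5, 0.94 ± 0.30 (edgeR adjusted p = 0.162), and at day 7.5, -0.54 ± 0.26 (adjusted p = 0.294), did not pass.

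The change of the SDC3 response over the 3 days was tested directly. It passed (edgeR F-test, adjusted p = 0.0293), as 1 of the 7 members eligible against 1.01% of all genes. It held under 17 of 23 other settings. It was lost, at adjusted p of 0.0509 to 0.105, without any 1 of the 3 untreated libraries or treated replicate 1 at day 2.5, or untreated replicate 1 or treated replicate 3 at day 4.5. With the day 2.5 start SDC3 held 60.4, 54.6 and 66.0 CPM at day 4.5, inside the untreated range, and its log2 difference between the early and late starts was -1.10 ± 0.28 at day 4.5 and -0.92 ± 0.26 at day 7.5 (no test).

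GPC1 was higher with early hyaluronidase at day 4.5 and lower in 2 of 3 lines at day 7.5, and neither difference passed. At day 4.5 it went from 13.6, 14.2 and 12.5 CPM untreated to 23.6, 24.2 and 26.2 CPM with the early start, and 20.1, 25.8 and 23.1 CPM with the late start, with no overlap with untreated. The early start difference was 0.79 ± 0.42 (edgeR adjusted p = 0.427). At day 7.5 it was 131, 45.3 and 149 CPM untreated against 24.5, 53.9 and 71.1 CPM, overlapping through untreated replicate 2. That gave -1.23 ± 0.36 (edgeR adjusted p = 0.0553), and without that replicate -1.61 (adjusted p = 0.00362). Without treated replicate 3 it was -1.59 (adjusted p = 0.0262). The change of the GPC1 response over days gave an edgeR adjusted p of 0.132, and 0.0115 without that untreated replicate.

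The remaining glypicans moved in 1 direction in all lines in several places but passed no test. GPC2 at day 7.5 held 42.8, 31.3 and 26.0 CPM untreated and 57.1, 65.4 and 60.6 CPM with the early start, without overlap, a difference of 0.77 ± 0.27 (edgeR adjusted p = 0.138). GPC4 was lower in 3 of 3 lines at day 7.5, at 22.3, 22.3 and 6.68 CPM untreated and 6.52, 13.7 and 2.09 CPM treated (-1.30 ± 0.58, edgeR adjusted p = 0.25). GPC6 at day 4.5 held 31.4, 42.6 and 47.3 CPM untreated and 93.7, 62.2 and 48.3 CPM treated (0.68 ± 0.34, edgeR adjusted p = 0.381). SDC4 with the late start at day 7.5 was higher in 3 of 3 lines, at 66.4, 55.0 and 51.1 CPM against 19.6, 49.8 and 17.1 CPM (0.92 ± 0.34, edgeR adjusted p = 0.239). Without untreated replicate 2 that was 1.58 (adjusted p = 0.0211). GPC1 in the same comparison was lower in 3 of 3 lines at -1.05 ± 0.35 (adjusted p = 0.197), and -1.43 (adjusted p = 0.02) without it.

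By count, early hyaluronidase at day 2.5 gave 0 of 8 members in edgeR against 1.15% of all genes, with 2 (GPC3 and SDC3) at an unadjusted p under 0.05 and 0 in DESeq2. At day 4.5 it gave 1 of 7, SDC3, against 3.48%. At day 7.5 it gave 0 of 7 against 3.33%, with 4 at an unadjusted p under 0.05 (GPC1, GPC2, GPC4 and SDC3) and 1 in DESeq2. The late start gave 0 of 7 in edgeR at day 4.5 against 0.22% of all genes and 0 of 7 at day 7.5 against 0.659%. At an unadjusted p under 0.05 there were 0 and 2 (GPC1 and SDC4), and DESeq2 called 0 on both days. GPC3 is not counted at days 4.5 and 7.5. With a block for the line, all-gene calls were 228 against 146 for the early start at day 2.5, and 55 against 28 and 132 against 84 for the late start at days 4.5 and 7.5, with no member gained or lost.

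Early hyaluronidase also went with fewer counts of cardiomyocyte genes. Their sum was 21702 to 42519 CPM untreated, 4744 to 17353 with the early start and 15452 to 29152 with the late start at day 4.5, and 56699 to 65345, 27817 to 30122 and 34250 to 57237 at day 7.5. All 6 genes fell at day 4.5 and 3 of 6 at day 7.5 with the early start. The endoderm or liver-type sum, from cells known to express GPC3 as well, was lower than untreated with both starts at day 7.5. It was 116 to 468 CPM untreated and 43.1 to 81.6 CPM with the early start, where SOX17, FOXA2, AFP and FGB were at 3 counts or fewer. With the late start it was 44.3 to 83.7 CPM. At day 4.5 this sum was 64.8 to 226 CPM untreated and 19.0 to 56.5 CPM with the early start, without overlap. The late start, at 39.1 to 96.3 CPM, overlapped untreated on that day. The endothelial sum at day 4.5 was higher with the early start (168 to 194 CPM) and the late start (197 to 219 CPM) than untreated (126 to 161 CPM). At day 7.5 the endothelial sums overlapped. The fibroblast or mesenchyme sum overlapped between the 3 groups on both days, at 763 to 1471 CPM with the early start against 997 to 2323 untreated at day 4.5. At day 2.5 it was 117 to 265 CPM treated and 387 to 659 untreated, without overlap, and PDGFRA fell by 2.03 (log2, edgeR adjusted p = 0.00215). The early mesoderm sum was higher in treated cardioids at day 2.5, at 201 to 408 CPM against 69.8 to 126. Their part in the differences of GPC3, SDC3 and GPC1 was not tested.

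HAS2 knockout cardioids gave no member that passed on any day. At day 1.5, 0 of 9 members passed in edgeR and 0% of all genes did, with 0 members at an unadjusted p under 0.05 and 0 in DESeq2. At day 2.5 it was 0 of 9 against 0.993%, also with 0 at an unadjusted p under 0.05 and 0 in DESeq2. At day 4.5 it was 0 of 9 in edgeR against 3.74%, with 3 at an unadjusted p under 0.05 (GPC1, GPC4 and GPC6) and 1 in DESeq2. At day 7.5 it was 0 of 9 against 0.348%, with 1 at an unadjusted p under 0.05 (GPC4) and 0 in DESeq2. The change of the KO effect over days passed for 0 of 9 in edgeR against 0.674% of all genes, with 0 at an unadjusted p under 0.05 and 0 in DESeq2.

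GPC6 at day 4.5 came closest. WT libraries held 14.5, 25.7 and 31.3 CPM (lowest, median and highest) and KO libraries 22.8, 47.0 and 50.4 CPM. All KO libraries except 1, clone cl14 at 22.8 CPM, lay above all WT ones. The log2 difference was 0.75 ± 0.24 (edgeR adjusted p = 0.0624), and it passed in 5 of 20 other settings. Among them were DESeq2 (adjusted p = 0.0274) and the edgeR fit with the library-number block. The edgeR fits without clone cl14 (0.88, adjusted p = 0.0314) and without WT replicate 2 (0.84, adjusted p = 0.0481) also passed. Within each of the 3 library-number blocks KO was higher, by 0.83, 0.76 and 0.91 in mean log2 CPM.

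GPC1 and GPC4 were lower in KO at day 4.5, at -0.73 ± 0.26 (edgeR adjusted p = 0.108) and -0.61 ± 0.29 (adjusted p = 0.232). GPC1 held 7.39, 16.9 and 20.8 CPM in KO (lowest, median and highest) and 13.1, 24.3 and 44.2 CPM in WT, overlapping. At day 7.5 GPC4 held 15.0, 10.9 and 19.9 CPM in KO (clones cl4, cl4 and cl14) and 43.1, 37.0 and 27.8 CPM in WT, without overlap. The difference was -1.28 ± 0.43 (edgeR adjusted p = 0.382). A fit on those 6 libraries alone gave an adjusted p of 0.0332. In the 1 block that holds both genotypes on that day the difference was -1.04 in log2 CPM. Among the syndecans, SDC3 at day 2.5 differed by 0.34 (edgeR adjusted p = 0.662). Within the 3 library-number blocks KO was higher in SDC3 by 0.95, 0.62 and 0.58 in mean log2 CPM. SDC4 at day 4.5 differed by -0.54 (edgeR adjusted p = 0.3), with -1.43 in the first block and 0.06 and 0.12 in the others.

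GPC3 did not follow genotype. At day 4.5 KO libraries held 24.4, 31.9 and 46.7 CPM (lowest, median and highest) within the WT range of 23.7 to 63.4, and at day 7.5 they held 16.9, 38.0 and 26.5 CPM against 19.0, 25.8 and 22.6. The log2 differences at days 1.5, 2.5, 4.5 and 7.5 were -0.27 ± 0.42, -0.15 ± 0.36, -0.40 ± 0.30 and 0.24 ± 0.43 (edgeR adjusted p = 0.941, 0.89, 0.484 and 1). Over the other settings the sign changed at days 2.5, 4.5 and 7.5, and in block C alone, which holds the later clones, day 4.5 gave 0.18. For GPC2 at day 4.5 the blocks mattered as well: the WT libraries of the first block held 100.0 and 87.4 CPM and the other 4 WT libraries 46.8 to 55.1 CPM, against 69.0 to 94.0 CPM in KO. Of the 6 cardiomyocyte genes, 3 were lower in KO at day 4.5, where 3.74% of all genes were called. The sums of that list overlapped, at 14369 to 38564 CPM in KO and 20928 to 53988 CPM in WT. PDGFRA, of the fibroblast or mesenchyme list, was higher by 1.08 (edgeR adjusted p = 0.0019). The sum of its list was not, at 657 to 1402 CPM in KO and 627 to 1330 CPM in WT. The part of these marker genes in the differences above was not tested.

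**Figure D5:**
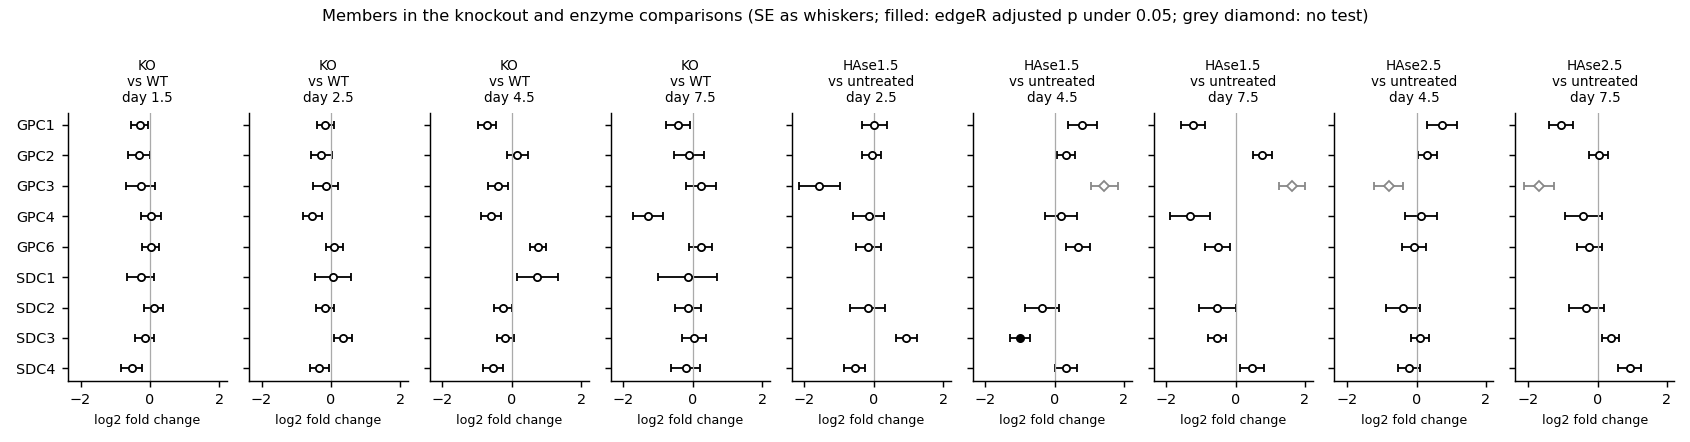
Fitted log2 fold change (horizontal axes) of each member in 9 comparisons of KO with WT and of hyaluronidase with untreated cardioids, with whiskers of 1 SE. Filled points passed an adjusted p of 0.05, grey diamonds carry no test, and the only filled point is SDC3 at day 4.5 with the early start, at -1.0.

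The KO effect and the early hyaluronidase effect were then compared with each other, in a fit over all 65 libraries. At days 2.5, 4.5 and 7.5 no member passed in edgeR, against 0.0925%, 0.271% and 0.0925% of all genes, and DESeq2 called 0 on each day. At an unadjusted p under 0.05 there were 0 members at day 2.5, 2 at day 4.5 (GPC1 and SDC3) and 0 at day 7.5. At day 4.5 the KO effect exceeded the enzyme effect by 0.84 ± 0.41 for SDC3 (edgeR adjusted p = 0.744) and lay below it by 1.5 ± 0.48 for GPC1 (adjusted p = 0.245). For GPC3 the difference was 1.37 ± 0.70 at day 2.5 (edgeR adjusted p = 0.992), and -1.79 ± 0.51 and -1.38 ± 0.60 at days 4.5 and 7.5, with no test.

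Genes that build and use the chains of these core proteins are given by list. Counts called in a list stand beside the share of all genes called in the same comparison. Genes named without such a count are among the largest called changes of their list. In WT from day 1.5 to day 2.5, where 30.1% of all genes passed, 4 of the 10 heparan sulfate modification genes tested rose and 4 fell, with a list median of 0.24 on the log2 scale against 0.01 for all genes. Among the sulfotransferases, HS6ST2 rose by 2.32 (edgeR adjusted p = 0.000253) and HS3ST3B1 by 1.42 (adjusted p = 0.00907), and HS3ST2 went from 6.71 to 15.0 CPM to 0 in all 6 libraries. SULF2, which strips sulfate from finished chains outside the cell, fell by 2.03 ± 0.42 (edgeR adjusted p = 0.000251), as 1 of 3 chain editing genes. EXT1, part of the chain polymerase, fell by 0.72 ± 0.15 (adjusted p = 0.000325) and rose by 0.83 ± 0.15 in the next step (adjusted p = 2.11e-05).

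In that next step, in which GPC3 and SDC3 rose and 34.5% of all genes passed, HS3ST3A1, a 3-O-sulfotransferase, went from 129 to 193 CPM to 6.59 to 17.5 CPM. It fell by 3.89 ± 0.27 (edgeR adjusted p = 9.48e-15), and by 3.52 ± 0.70 in untreated cardioids (adjusted p = 0.00113). HS3ST3B1 fell by 2.41 ± 0.43 (adjusted p = 1.86e-05), and in all 1 of the 10 modification genes rose and 2 fell. Of the 5 polymerisation genes, 2 rose, EXT1 and EXTL3 (0.92, adjusted p = 0.0116), with a list median of 0.83 against 0.03 for all genes. Of the 6 linker genes, 1 rose, XYLT2, by 0.84 (adjusted p = 0.00688). Other heparan sulfate core proteins, the basement membrane proteins COL18A1 and HSPG2, rose by 1.28 (adjusted p = 1.2e-06) and 0.92 (adjusted p = 0.00907), 2 of 3 tested.

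Partners of the syndecan tail changed over the same step. PRKCA, the kinase that SDC4 binds, went from 1.53 to 5.71 CPM at day 2.5 to 14.4 to 50.1 CPM at day 4.5 in WT as SDC4 fell, a rise of 2.76 ± 0.40 (log2, edgeR adjusted p = 4.53e-07). TIAM1, a Rac activator, fell by 1.54 ± 0.25 (adjusted p = 3.95e-06). In all, 3 of 7 such partners rose and 1 fell over this step, against 34.5% of all genes called in either direction. Of the 8 shedding and release genes tested, MMP14, a membrane metalloprotease that cuts syndecan ectodomains, fell by 1.68 ± 0.26 from day 1.5 to day 2.5 (edgeR adjusted p = 2.64e-06), when ADAM10 rose by 0.62 (adjusted p = 0.00224). MMP2 fell by 2.36 ± 0.39 from day 2.5 to day 4.5 (adjusted p = 4.51e-06), when FURIN rose by 0.98 (adjusted p = 0.00152).

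The hedgehog pathway, whose ligands GPC3 binds, was counted over the same steps in WT. Of the 8 genes tested, 5 rose from day 1.5 to day 2.5 and 0 fell (30.1% of all genes called), and GPC3 was higher in 5 of 5 pairs without passing. From day 2.5 to day 4.5, when GPC3 rose, 0 rose and 6 fell (34.5% of all genes called), with a list median of -1.32 on the log2 scale against 0.03 for all genes. BOC, a hedgehog co-receptor, rose by 3.42 ± 0.31 in the first step (edgeR adjusted p = 2.56e-11). GLI1, a transcription factor and target of the pathway, went from 3.57 to 23.1 CPM at day 2.5 to 0 to 1.08 CPM at day 4.5. PTCH1, the hedgehog receptor and itself a target, was higher in KO at day 4.5, at 25.5 to 45.8 CPM against 10.0 to 21.9 CPM, by 1.08 ± 0.27 (adjusted p = 0.0184).

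Under early hyaluronidase a pair of hedgehog co-receptors was higher in the same libraries as GPC3. BOC went from 10.2 to 22.2 CPM untreated to 33.7 to 87.5 CPM at day 4.5, by 1.75 ± 0.38 (log2, edgeR adjusted p = 0.008), and rose by 2.04 ± 0.47 at day 7.5 (adjusted p = 0.0142). CDON went from 2.66 to 5.56 CPM to 11.8 to 18.6 CPM at day 4.5, by 1.89 ± 0.52 (adjusted p = 0.0431), and rose by 1.95 ± 0.54 at day 7.5 (adjusted p = 0.0436). These were 2 of 7 pathway genes on each day (3.48% and 3.33% of all genes called), with 0 lower and list medians of 0.08 and 0.51 against 0.02 for all genes. BOC was higher already at day 2.5, by 1.63 (adjusted p = 0.0347), when GPC3 was not.

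Early hyaluronidase also changed genes that add the chains and that act at the syndecan tail. XYLT1, an enzyme that adds the first sugar of heparan sulfate chains, went from 5.46 to 11.5 CPM to 24.2 to 56.5 CPM at day 4.5. It rose by 2.17 ± 0.45 (log2, edgeR adjusted p = 0.00601), and by 2.24 ± 0.53 at day 7.5 (adjusted p = 0.016). It was 1 of 6 linker genes on each day, where 3.48% and 3.33% of all genes were called at days 4.5 and 7.5. EZR, ezrin, which ties syndecan tails to actin, fell from 258 to 259 CPM to 68.3 to 146 CPM at day 4.5, by 1.45 ± 0.23 (adjusted p = 0.0004), and by 1.17 ± 0.22 at day 7.5 (adjusted p = 0.00285), as 1 of 6 partners. Among other core proteins COL18A1 fell by 2.04 ± 0.36 at day 4.5 (adjusted p = 0.00199) and by 1.41 ± 0.34 at day 7.5 (adjusted p = 0.0226), and HSPG2 fell by 1.73 ± 0.34 at day 7.5 (adjusted p = 0.00486). Heparanase-2, HPSE2, was at 0 CPM in the 3 untreated libraries at day 7.5 and at 5.58 to 13 CPM in the treated ones. The protease gene PCSK5 was at 0.892 to 1.48 and 7.19 to 27.7 CPM.

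In KO cardioids at day 4.5, where 3.74% of all genes passed, 3 of 10 modification genes did: HS3ST5 rose by 1.64 ± 0.48 (edgeR adjusted p = 0.0442), HS6ST1 fell by 1.42 ± 0.42 (adjusted p = 0.0466) and HS6ST2 fell by 1.85 ± 0.47 (adjusted p = 0.0171). HSPG2 fell by 1.12 ± 0.29 (adjusted p = 0.0191). COL18A1 differed between the KO and the early hyaluronidase effects at day 4.5, by 1.87 ± 0.38 (adjusted p = 0.00903).

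Over the 16 group means of log2 CPM, the 5 genes whose pattern was most like that of GPC3, among 14052 genes, were NAALADL2 (Pearson r = 0.951), CATSPER2 (0.923), GIT2 (0.916), ALG9 (0.908) and a gene with no name in the table, ENSG00000253471 (0.906). NAALADL2 was low throughout, with 5.75 to 10.6 CPM at day 7.5 with the early start and 0 to 4.70 CPM with the late start. At days 4.5 and 7.5 the early and late start ranges overlapped for CATSPER2, GIT2 and ALG9, and lay apart for NAALADL2 and ENSG00000253471. GIT2 held 48.3 to 66.5 CPM with the early start and 48.4 to 56.1 CPM with the late start at day 4.5. A high r over the 16 groups therefore need not mean the same order of the enzyme groups. Among the members themselves the lowest correlations were those of GPC4 with SDC3 (-0.73), GPC1 with GPC2 (-0.72) and SDC1 with SDC3 (-0.68). The highest were those of GPC4 with SDC4 (0.60), GPC3 with SDC3 (0.54), GPC2 with GPC3 (0.53) and GPC4 with SDC1 (0.53). The 16 groups share days, lines and controls, so these are descriptions.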

How the data were processed

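The deposited table gives whole-number counts of 3′ tag reads per gene, made with featureCounts (Subread 1.6.2) on GRCh38, per the submitters' processing notes. The aligner and the strand setting are not given in the sources used here. 4 columns of the table match no listed sample and were not used. Gene IDs were matched to GENCODE 29.

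Counts were tested as deposited with edgeR 4.0.16 in R 4.3.3: TMM scaling, genes kept by filterByExpr with a minimum count of 10, robust quasi-likelihood fits with 1 mean per group, over the 41 genotype-arm libraries (13797 genes tested), the 24 enzyme-arm libraries (12748) or all 65 (14047). P-values were adjusted by Benjamini-Hochberg over every gene in the fit and called under 0.05. CPM are counts per 1000000 counts of a library. Alternatives were DESeq2 1.42.0, its size factors, no filter, a minimum of 30, fits on the compared libraries alone, blocks, repeats of a line summed, and each library left out.

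All 9 members were fitted in every genotype-arm comparison, and 8, all but SDC1, in every enzyme-arm comparison. Values are not printed here for every member in every comparison. From each list of related genes, the 2 largest called changes in each direction may be named. The 5 genes most like GPC3 are those with the highest Pearson r over group means of log2 CPM (prior count 2). Members and lists were chosen with earlier results of these data known.

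Replicates 1, 2 and 3 of the enzyme arm are the lines TNNI1, WT and TNNT2 in every group, so the numbers pair the libraries. Deviations from the group means of same-line libraries correlated with a median r of 0.181, and 15 of 21 such pairs were above 0.1, against 5 of 42 pairs of different lines. A block for the line changed no call of a member.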

Additional observations from a re-analysis of the deposited data

Results flagged for a closer look

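In groups of 4 to 10 libraries, 1 library can lie far from the rest by Dixon's test at the 95% level. This was so in 4 of the 54 combinations of member and group examined, and chance marks about 1 in 20. GPC2 in KO at day 1.5 stood at 82.5 CPM in clone cl4 replicate 1, while the other libraries held 23.9 to 31.7 CPM. The WT libraries of the same library-number block were also high in GPC2 on that day, at 71.9 and 56.0 CPM. SDC4 in KO at day 2.5 stood at 319 CPM in clone cl4 replicate 1, against 192 to 224 CPM in the others. Clone cl14 was low in GPC6 at day 4.5, at 22.8 CPM against 37.6 to 50.4 CPM, and low in SDC2 at day 1.5, at 8.94 CPM against 20.9 to 28.9 CPM.

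The SDC3 response to hyaluronidase from day 1.5 differed between days 2.5, 4.5 and 7.5, with an edgeR adjusted p of 0.0293 for the change itself. It was higher than untreated in 3 of 3 lines at day 2.5, lower in 3 of 3 at day 4.5 and higher in 1 of 3 at day 7.5.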

How the results depend on the processing

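No member called changed direction under the settings tried. The number of members called in KO at day 4.5 went from 0 to 1 with DESeq2, with the stricter filter and with the replicate block, and was 0 to 1 with each library left out. KO at day 7.5 gave 1 when only the libraries compared were fitted. The WT step from day 4.5 to day 7.5 gave 2 with DESeq2 and 3 with the replicate block, where GPC2 (-0.94, adjusted p = 0.0145) and SDC4 (-1.08, adjusted p = 0.0065) joined GPC1, and 1 to 2 with each library left out. Early hyaluronidase gave 0 at day 4.5 when only the libraries compared were fitted (0 to 1 over left-out libraries), and at day 7.5 1 with size factors of DESeq2 or DESeq2 itself and 2 without a filter (0 to 1 over left-out libraries). Late hyaluronidase at day 7.5 gave 2 without a filter and 0 to 2 over left-out libraries. The untreated step from day 4.5 to day 7.5 gave 1 to 3, and the change of the early hyaluronidase effect 2 without a filter and 0 to 2 over left-out libraries. The block for library numbers in the genotype arm rests on numbers only. Of the same-block pairs of libraries, 26 of 37 correlated above 0.1, so not every one, against 7 of 74 pairs from different blocks. With it GPC6 in KO at day 4.5 (0.78, adjusted p = 0.0315), SDC3 in the WT step to day 2.5 (0.68, adjusted p = 0.00414) and GPC6 in the WT step to day 4.5 (-0.57, adjusted p = 0.0351) also passed, and it changed no other call of a member. The cause of these changes was not tested.

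Over all genes, calls for KO were 137, 516 and 48 at days 2.5, 4.5 and 7.5. They were 292, 829 and 115 with the replicate block, 221 at day 2.5 with DESeq2, 212 and 193 at days 4.5 and 7.5 on only the libraries compared, and at day 4.5 254 without a filter and 286 with repeats of a line summed. The change of the KO effect had 93, and 239 with DESeq2, 416 with the block and 41 with repeats summed. The WT steps had 4153 calls to day 2.5 (2736 on only the libraries compared) and 372 to day 7.5 (852 with the block, 222 without a filter, 192 on only the libraries compared), and the untreated step to day 7.5 had 814 (1279 without a filter, 401 on only the libraries compared). Early hyaluronidase had 146 at day 2.5 (241 with DESeq2, 290 without a filter, 228 with the block, 90 on only the libraries compared) and 425 at day 7.5 (713 without a filter, 173 on only the libraries compared). Late hyaluronidase had 28 and 84 at days 4.5 and 7.5 (89 and 191 with DESeq2, 165 and 354 without a filter, 55 and 132 with the block, 201 and 7 on only the libraries compared). The change of the early effect had 129 (338 with DESeq2, 549 without a filter, 269 with the block). The KO effect minus the early effect had 13, 38 and 13 at days 2.5, 4.5 and 7.5 (42, 156 and 142 without a filter, 38, 111 and 54 with the block, and 24 and 61 with DESeq2 at the first 2). Members at a few CPM, such as SDC1 after day 1.5 and GPC3 before day 4.5, rest on few reads. Scaling CPM by TMM moved 2 of 144 group means by more than 1 SD.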
